A study of Mus musculus with 48 samples.

Results

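Expression of 10 genes of the Bcl2 family was followed through a panel of ribosomal protein mutants: Bcl2, Bcl2l1 (Bcl-xL), Bcl2l2 (Bcl-w), Mcl1, Bak1, Bcl2l11 (Bim), Bad, Bid, Bik and Bmf. They were chosen by their symbols in the deposited table, as 10 of its 55487 genes, and 3 other family genes (Bax, Bbc3 and Pmaip1) were left out of the choice. The symbols matched 11 rows of the table, because 2 rows carry the name Bcl2l2. One of these is Pabpn1, the next gene on chromosome 14, by its Ensembl identifier, and it was not counted as a family gene. In build GRCm38.p6 Bcl2 spans chr1:106538176-106714290, Bcl2l1 chr2:152758732-152833803, Bcl2l2 chr14:54883366-54890858 and Mcl1 chr3:95656944-95663179. The effector Bak1 lies at chr17:27019812-27028627. Of the BH3-only genes, Bcl2l11 spans chr2:128126038-128162547, Bad chr19:6941861-6951905, Bid chr6:120893119-120917062, Bik chr15:83526790-83544635 and Bmf chr2:118528757-118549686.

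The cells were Ba/F3, a mouse line that depends on interleukin 3, all grown with 1 ng/ml interleukin 3 and 10% serum and given cycloheximide at 0.1 mg/ml in the last 1 min of culture. The 8 genotypes, made by CRISPR-Cas9 editing per the description of the series, were WT, loss of 1 allele of Rpl5 (Rpl5+/-), Rpl11 (Rpl11+/-) or Rpl22 (Rpl22+/-), loss of both alleles of Rpl22 (Rpl22-/-), and 3 amino acid exchanges labelled as present on both alleles: R98S in Rpl10, and P131S or H137Y in Rps15. Every genotype had 3 clones, and each clone's lysate was split into 1 poly(A)-selected RNA-seq library and 1 library of ribosome footprints of 28 to 30 nt, which gives 24 libraries of each kind. The clones of a genotype are separate lines from the same parent, so p-values measure the spread between clones, which includes differences that arose when a clone was picked. All 7 mutant genotypes were compared with the same 3 WT clones.

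Proteins of the Bcl2 family decide whether the outer mitochondrial membrane stays intact. Pro-survival members (Bcl2, Bcl-xL, Bcl-w, Mcl1) hold the pore-forming effectors Bak and Bax in check, while BH3-only members (Bim, Bad, Bid, Bik, Bmf) bind the pro-survival proteins or activate the effectors directly. In cells that depend on interleukin 3, the cytokine is known to keep Bcl-xL and Mcl1 expressed through STAT5 and other pathways, to hold Bim low by restraining FoxO factors, and to keep Bad phosphorylated and inactive.

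Library totals were 13029073 to 38258559 estimated counts in RNA-seq and 15598994 to 72044439 in footprints. The edited genes went with most labels: Rpl5 RNA was 66.3 to 68.6% of the WT mean in Rpl5+/- clones, Rpl11 RNA 60.2 to 68.7% in Rpl11+/- clones and Rpl22 RNA 70.1 to 75.1% in Rpl22+/- clones. In the Rpl22-/- clones Rpl22 footprints ranged from 10.7 to 60.5% of WT. The highest value came from the library labelled Rpl22-/- clone 30, which goes against that label, since it lies inside the range of the heterozygous clones (56 to 62.6%). A point mutation need not change a gene's level, so Rpl10 and Rps15 do not check the labels, but Rps15 RNA spread widely, from 62.8 to 134% of WT in P131S clones and 56.6 to 127% in H137Y clones, against 99.2 to 101% in WT. Ba/F3 is known as a pro-B line, but pro-B markers were largely absent: Il7r was at 0 in all 24 RNA libraries, Rag1 in 23 and Igll1 and Ebf1 in 22, while Cd79b was measured at 3.35 to 9.91 CPM (counts scaled to library size). The interleukin 3 receptor was well expressed, with Il3ra, Csf2rb and Csf2rb2 summing to 876 to 1039 CPM in WT.

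Promoter sequences are shown for 4 of the genes whose RNA differed from WT in Rps15 mutants: Bcl2, which was lower in both, Bcl2l11, which was higher in H137Y, and Bad and Bak1, which were higher in both. Each is the 250 bases before the gene's outermost start in the RefSeq promoter table (build GRCm38.p6), written 5′ to 3′ on the gene's strand. Capitals mark matches on either strand to a forkhead motif (GTAAACA) or a GC box (GGGCGG).
Bcl2, chr1:106714291-106714540, minus strand: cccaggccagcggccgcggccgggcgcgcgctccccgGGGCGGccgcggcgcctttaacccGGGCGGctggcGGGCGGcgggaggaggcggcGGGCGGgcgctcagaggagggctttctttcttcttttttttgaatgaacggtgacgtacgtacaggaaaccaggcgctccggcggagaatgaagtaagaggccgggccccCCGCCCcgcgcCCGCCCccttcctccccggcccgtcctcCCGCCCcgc
Bcl2l11, chr2:128125788-128126037, plus strand: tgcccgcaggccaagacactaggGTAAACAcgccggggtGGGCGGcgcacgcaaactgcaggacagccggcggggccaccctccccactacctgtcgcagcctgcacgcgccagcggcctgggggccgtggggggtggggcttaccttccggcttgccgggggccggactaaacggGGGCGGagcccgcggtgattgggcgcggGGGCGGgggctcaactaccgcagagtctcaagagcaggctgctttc
Bad, chr19:6941611-6941860, plus strand: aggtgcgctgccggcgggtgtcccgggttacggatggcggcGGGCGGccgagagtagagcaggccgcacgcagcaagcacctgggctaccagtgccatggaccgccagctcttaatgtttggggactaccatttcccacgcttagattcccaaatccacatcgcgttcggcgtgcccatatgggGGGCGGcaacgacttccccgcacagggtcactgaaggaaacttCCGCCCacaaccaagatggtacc
Bak1, chr17:27028628-27028877, minus strand: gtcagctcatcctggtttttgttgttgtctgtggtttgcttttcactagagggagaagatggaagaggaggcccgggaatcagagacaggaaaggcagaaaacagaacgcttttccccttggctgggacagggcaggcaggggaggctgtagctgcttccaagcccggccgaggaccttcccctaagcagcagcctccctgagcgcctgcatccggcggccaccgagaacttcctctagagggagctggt
The table holds 15 starts for 9 of the 10 genes. Of these, the forkhead motif occurs at 1, the Bcl2l11 start printed here, where it begins 227 bases before the start, and 3.17% of all 32851 promoters of this length hold it. The GC box occurs at 7 starts of 6 genes, with 7 matches at the Bcl2 start and 3 each at the printed Bcl2l11 and Bad starts, against 32.7% of all promoters. The STAT5 motif TTCNNNGAA and the E box CACGTG were searched too, and neither was found at a family start, while 7.02% and 6.02% of all promoters hold them. Matches of letters are given as descriptions only, and the last 50 bases of each table entry, which are transcribed, were not searched.

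Bcl2 and Bcl2l1, both pro-survival genes, carried the largest losses in the panel among well-measured family genes, and both in Rps15 mutants. At the RNA level 6 of the 9 family genes tested differed from WT in Rps15 P131S (2 higher, 4 lower) and 6 of 9 in Rps15 H137Y (3 higher, 3 lower), by edgeR's quasi-likelihood test with Benjamini-Hochberg adjusted p under 0.05. These genotypes changed the RNA of many genes: 47% of all 12814 genes tested passed in P131S (23.7% higher, 23.4% lower) and 41% in H137Y (21% higher, 20% lower). The family's counts have to be read against these shares. In both mutants the lower genes include Bmf, which was near the limit of detection, and Bcl2l2, whose row is uncertain. The median log2 change of the 9 genes was -0.21 in P131S and -0.04 in H137Y, against -0.01 and 0.01 over all genes. Bik, a BH3-only gene, had 0 counts in all 48 libraries and was not tested. A count of 0 allows 3 counts, which is at most 0.23 CPM in RNA and 0.192 CPM in footprints.

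Beside all results on the Rps15 mutants stand shifts in marker genes of several cell types. The summed level of 12 myeloid and granulocyte markers was 46.1 to 204 CPM in WT RNA, 599 to 3642 CPM in P131S and 668 to 4261 CPM in H137Y. Of the 10 markers tested, 7 were higher in P131S and 9 in H137Y, and none was lower. The highest levels of single markers in any library were 1456 CPM for S100a9, 1126 CPM for Ngp, 982 CPM for S100a8 and 537 CPM for Ltf, while Elane stayed at or below 0.201 CPM and Camp was at 0 in 19 of 24 libraries. The interleukin 3 receptor genes moved as well, to a sum of 2234 to 2844 CPM in P131S and 1421 to 2511 CPM in H137Y, with 2 of 3 higher in each. Of the pro-B markers the 1 tested, Cd79b, was lower in P131S (log2 change -0.88) and not called in H137Y (-0.04). Of 3 mast cell and basophil markers tested, 2 were higher and 1 lower in P131S, and 1 higher and 1 lower in H137Y. The erythroid marker tested, Hba-a1, was higher in H137Y (log2 change 2.36), where it ranged from 29.2 to 228 CPM against 15.4 to 41.5 CPM in WT. The T cell marker tested, Cd3g, was called higher in P131S, where it ranged from 0 to 12.9 CPM, and Ptprc, the pan-leukocyte marker, was lower in H137Y (-0.39). Other genotypes moved too. Their myeloid sum was 209 to 519 CPM in Rpl5+/-, above all WT clones, and 29.1 to 32.6 CPM in Rpl10 R98S, below them. The interleukin 3 receptor sum lay above all WT clones in Rpl5+/-, Rpl11+/- and Rpl22+/-. For each sum the remaining genotypes overlapped with WT, and no gene of either list was called outside the Rps15 mutants. Ptprc was called lower in Rpl10 R98S (-0.45). In such bulk samples, fewer cells of a type and less RNA per cell cannot be told apart. The part of these shifts in the family's changes was not tested in any genotype.

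Bcl2, the founding pro-survival gene, had RNA levels of 446, 481 and 486 CPM in the 3 WT clones. The P131S clones measured 223, 376 and 380 CPM and the H137Y clones 232, 276 and 368 CPM, so that every Rps15 mutant clone lay below every WT clone. The log2 change was -0.53 (SE 0.17, adjusted p 0.015) in P131S and -0.69 (SE 0.17, adjusted p 0.00303) in H137Y. Clone 20 was the low P131S clone, and without it the P131S change was -0.32 with an adjusted p of 0.0801. Footprints on Bcl2 were lower as well: they were 139, 163 and 189 CPM in WT, 51.5, 102 and 103 CPM in P131S, and 60.9, 72.4 and 83.2 CPM in H137Y. The footprint change was -0.94 (SE 0.19, adjusted p 0.00227) in P131S and -1.18 (SE 0.20, adjusted p 0.000579) in H137Y, with no overlap between mutant and WT clones.

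In the other genotypes Bcl2 did not pass the test in RNA or footprints. Its RNA was nevertheless below every WT clone in Rpl5+/- (309, 318 and 333 CPM, log2 change -0.56, adjusted p 0.11) and in Rpl22-/- (297, 316 and 338 CPM, log2 change -0.57, adjusted p 0.0566). The same clones had footprints of 105, 113 and 120 CPM in Rpl5+/- and 106, 111 and 114 CPM in Rpl22-/-, again all below WT. DESeq2 called the RNA change in both genotypes (adjusted p 0.0247 and 0.01), as 1 of 2 alternative fits out of 12 that did so in each. Rpl10 R98S clones were below WT as well, at 384, 402 and 437 CPM in RNA (log2 change -0.21, adjusted p 0.452) and 108, 109 and 130 CPM in footprints (-0.50, adjusted p 0.221). Of 12 alternative fits, 1 called this RNA change. The footprint change was called by 0 of 12 in Rpl5+/-, Rpl22-/- and Rpl10 R98S. In mean RNA level the order was WT (471 ± 21.9 CPM, SD, n = 3), Rpl11+/- (435 ± 50.9), Rpl10 R98S (407.5 ± 27.1), Rpl22+/- (398 ± 59.2), P131S (326.5 ± 89.6), Rpl5+/- (320.1 ± 12.4), Rpl22-/- (317 ± 20.9) and H137Y (292 ± 69.0). Each pair of neighbours in this order differed by less than the larger of its SDs.

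Bcl2l1, which encodes Bcl-xL, was the family gene with the clearest loss in P131S and one of 2 that differed between the Rps15 mutations. RNA was 63.4, 71.2 and 72.1 CPM in WT, 35.7, 38.9 and 41.3 CPM in P131S, and 51.2, 55.0 and 66.8 CPM in H137Y. The P131S clones were lower than all clones of every other genotype. The log2 change against WT was -0.83 (SE 0.12, adjusted p 1.07e-05) in P131S and -0.26 (SE 0.12, adjusted p 0.083) in H137Y, where clone 6 lay within the WT range. Without clone 6 the H137Y change was -0.38 with an adjusted p of 0.0158. The direct comparison of P131S with H137Y gave -0.58 (SE 0.12, adjusted p 0.00124), with all 3 P131S clones below all H137Y clones.

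Footprints on Bcl2l1 followed the same order: 78.3, 98.01 and 115 CPM in WT, 45.5, 45.6 and 53.4 CPM in P131S, and 62.8, 63.5 and 74.7 CPM in H137Y. They fell by 1.01 on the log2 scale in P131S (SE 0.13, adjusted p 5.56e-05) and by 0.54 in H137Y (SE 0.13, adjusted p 0.0102). P131S footprints were below those of H137Y by a log2 difference of -0.48 (SE 0.13, adjusted p 0.0407). No fit that left out 1 of these 6 clones kept the call, with adjusted p-values from 0.0609 to 0.165. The call of H137Y against WT was lost without WT clone 1 (log2 change -0.39, adjusted p 0.0893). In the 5 other mutant genotypes Bcl2l1 stayed near WT, with mean RNA of 61.5 to 72.3 CPM and mean footprints of 89.4 to 97.3 CPM and no call.

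**Figure D1:**
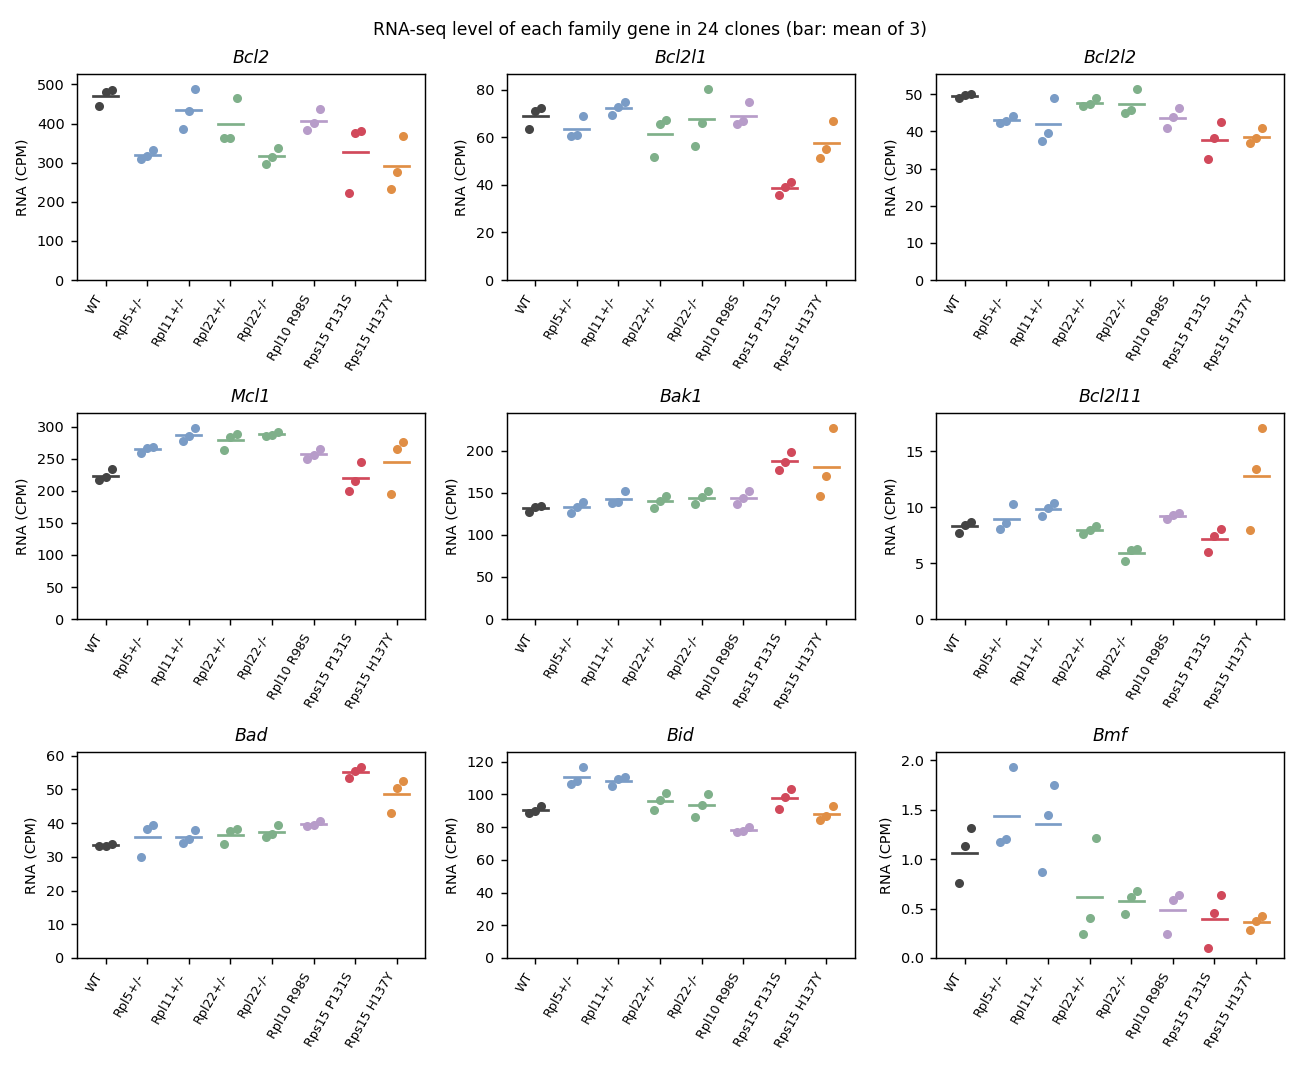
RNA-seq level (CPM, linear axis from 0) of 9 family genes in each clone, one panel per gene, with genotypes on the horizontal axis, a point per clone and a bar at the mean of 3 clones. Bcl2l1 in P131S lies at 35.7 to 41.3 CPM below all other clones, and Bad in the Rps15 mutants lies at 43.0 to 56.6 CPM above all others.

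Mcl1, a short-lived pro-survival protein, was higher in RNA in Rpl11+/- and Rpl22-/- clones. RNA was 217, 221 and 234 CPM in WT, 278, 286 and 298 CPM in Rpl11+/-, and 286, 287 and 291 CPM in Rpl22-/-, without overlap with WT. The log2 change was 0.36 in both (SE 0.09 each, adjusted p 0.015 in Rpl11+/- and 0.0219 in Rpl22-/-). Rpl22+/- clones were at 264, 284 and 289 CPM (log2 change 0.32, adjusted p 0.0581) and Rpl5+/- clones at 259, 268 and 268 CPM (0.24, adjusted p 0.2), above WT but not called. In Rpl10 R98S the 3 clones were at 250, 257 and 265 CPM (0.20, adjusted p 0.158). The calls were narrow: leaving out WT clone 3 raised the adjusted p to 0.0588 in Rpl11+/- and to 0.0894 in Rpl22-/-. Without the library labelled Rpl22-/- clone 30, whose Rpl22 level was high, the Rpl22-/- change was 0.37 with an adjusted p of 0.0651.

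Footprints on Mcl1 were 88.5, 89.9 and 93.9 CPM in WT and 133, 147 and 149 CPM in Rpl22-/-. The log2 change of 0.65 (SE 0.14) had an adjusted p of 0.0801 with edgeR, 0.00173 with DESeq2 and 0.0462 with limma voom. Without clone 30 it was 0.62 with an adjusted p of 0.282 (edgeR). In Rpl22+/- the footprints were 122, 128 and 132 CPM (log2 change 0.49, adjusted p 0.139), also above all WT clones. Homozygous and heterozygous Rpl22 clones did not pass a test of their difference in Mcl1 (footprint log2 difference 0.16, SE 0.14, adjusted p 0.603). In the Rps15 mutants Mcl1 was not called, and the H137Y clones scattered, with footprints of 50.6, 75.9 and 91.0 CPM and RNA of 266, 195 and 277 CPM in the same order of clones (2, 6 and 16). Single clones decide this: without clone 6 the H137Y RNA was called higher (0.28, adjusted p 0.00279), and without clone 16 the H137Y footprints were called lower (-0.52, adjusted p 0.0185). With all clones the changes were 0.13 (adjusted p 0.257) in RNA and -0.32 (adjusted p 0.139) in footprints.

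Bcl2l2, which encodes Bcl-w, had RNA of 32.6 to 51.3 CPM over all clones and was lower in both Rps15 mutants. It measured 48.9, 49.8 and 49.9 CPM in WT, 32.6, 38.2 and 42.5 CPM in P131S (a log2 change of -0.39, SE 0.09, adjusted p 0.00164), and 36.8, 38.2 and 40.9 CPM in H137Y (-0.36, SE 0.09, adjusted p 0.00379), with no overlap. Without a call, Rpl5+/- clones (42.4 to 44.2 CPM, -0.20, adjusted p 0.321) and Rpl10 R98S clones (41.0 to 46.3 CPM, -0.18, adjusted p 0.206) also lay below WT. Rpl11+/- clones were at 37.3, 39.6 and 48.9 CPM (-0.24, adjusted p 0.0921), the highest close to the lowest WT clone. Both Rpl22 genotypes overlapped with WT. The footprint table gave this gene almost nothing, 0 to 1.53 CPM and 0 counts in 4 of 24 libraries. The row is uncertain, because the gene lies next to Pabpn1 and a readthrough gene of both (Gm20521) has a row of its own with 0 to 3.38 CPM in footprints and up to 2.08 CPM in RNA. Pabpn1 itself lay the other way in RNA, at 167 to 171 CPM in WT, 218 to 293 CPM in P131S and 201 to 216 CPM in H137Y. How reads shared by the 3 rows were split is not given in the sources used here.

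Bak1, the pore-forming effector, was higher in RNA in both Rps15 mutants while its footprints were called in H137Y and not in P131S. RNA was 127, 133 and 134 CPM in WT, 177, 187 and 198 CPM in P131S (a log2 change of 0.51, SE 0.10, adjusted p 0.000393), and 146, 170 and 227 CPM in H137Y (0.46, SE 0.10, adjusted p 0.00124). All 6 mutant clones lay above WT. Footprints were 51.8, 63.3 and 64.4 CPM in WT, 87.3, 88.5 and 103 CPM in H137Y (log2 change 0.63, SE 0.19, adjusted p 0.0327), and 52.3, 53.2 and 72.3 CPM in P131S (-0.01, SE 0.19, adjusted p 0.978). The direct footprint difference between P131S and H137Y was -0.65 (SE 0.19, adjusted p 0.0565), which missed the threshold with edgeR and passed it with DESeq2 (adjusted p 0.0161) and limma voom (adjusted p 0.0462). No fit that left out 1 of the 6 clones kept the H137Y footprint call, with adjusted p-values from 0.051 to 0.131.

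Bcl2l11 encodes Bim, a BH3-only protein that binds all pro-survival members and is a known FoxO target. It was the other family gene that differed between the Rps15 mutations. RNA was 7.72, 8.42 and 8.67 CPM in WT, 7.96, 13.4 and 17.04 CPM in H137Y, and 6.02, 7.44 and 8.04 CPM in P131S. In H137Y, clones 2 and 16 were high and clone 6 lay within the WT range. H137Y differed from WT by 0.63 (SE 0.18, adjusted p 0.00747), and without clone 2, the highest, by 0.37 with an adjusted p of 0.0887. P131S differed from H137Y by -0.84 (SE 0.18, adjusted p 0.00185), with P131S clone 63 just above H137Y clone 6. A fit of these 2 genotypes alone gave an adjusted p of 0.128.

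Footprints on Bcl2l11 were 5.87, 7.30 and 7.71 CPM in WT, 11.1, 13.6 and 19.8 CPM in H137Y (log2 change 1.09, SE 0.33, adjusted p 0.0369), and 10.5, 11.4 and 11.8 CPM in P131S (0.69, SE 0.33, adjusted p 0.17). All 6 mutant clones were above WT, but the H137Y call held in 1 of the 6 fits that left out a clone (adjusted p 0.0306 to 0.162). Rpl11+/- clones were also above WT, at 10.1, 12.4 and 15.1 CPM (0.85, SE 0.33, adjusted p 0.38). The footprint counts behind these values were 48 to 891 per library, which limits their precision. In Rpl22-/- RNA the 3 clones were all below WT, at 5.16, 6.18 and 6.28 CPM (-0.50, adjusted p 0.131).

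Bad, a BH3-only protein controlled by phosphorylation, rose in RNA in both Rps15 mutants. RNA was 33.1, 33.3 and 33.8 CPM in WT, 53.4, 55.3 and 56.6 CPM in P131S (a log2 change of 0.72, SE 0.09, adjusted p 1.8e-06), and 43.0, 50.5 and 52.5 CPM in H137Y (0.54, SE 0.09, adjusted p 5.23e-05). Every Rps15 mutant clone was above every clone of the other 6 genotypes, whose highest value was 40.6 CPM. Rpl10 R98S clones, at 39.1 to 40.6 CPM, were above all WT clones too (log2 change 0.25, adjusted p 0.0649), and DESeq2 called this rise. Clones of Rpl11+/-, Rpl22+/- and Rpl22-/- also lay above WT, with smaller changes (0.10, 0.13 and 0.16) and no call, while Rpl5+/- overlapped with WT. Footprints on Bad were few, 86 to 521 counts per library. They rose from 3.93, 4.83 and 4.997 CPM in WT to 8.25, 8.32 and 10.4 CPM in P131S (0.97, SE 0.28, adjusted p 0.022), and were 4.79, 7.58 and 10.0 CPM in H137Y (0.70, SE 0.28, adjusted p 0.121), where clone 2 lay within the WT range. The P131S footprint call was lost without WT clone 1 (adjusted p 0.0899) and without P131S clone 63 (adjusted p 0.0743).

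Bid, a BH3-only protein activated by caspase cleavage, was called in RNA in 3 genotypes with mutations in large-subunit genes. RNA was 88.5, 89.7 and 92.6 CPM in WT, 106, 108 and 117 CPM in Rpl5+/- (log2 change 0.29, SE 0.06, adjusted p 0.0346), 105, 109 and 111 CPM in Rpl11+/- (0.26, SE 0.06, adjusted p 0.012), and 77.2, 77.7 and 80.2 CPM in Rpl10 R98S (-0.20, SE 0.06, adjusted p 0.0424). No clone of these genotypes overlapped with WT. The calls in Rpl5+/- and Rpl10 R98S were lost whenever 1 clone was left out, with adjusted p-values from 0.0795 to 0.156, and the call in Rpl11+/- was lost without WT clone 3 (adjusted p 0.0573). In the Rps15 mutants Bid RNA was not called, while footprints were 54.7, 66.6 and 73.2 CPM in WT, 90.4, 94.1 and 108 CPM in P131S (0.59, SE 0.13, adjusted p 0.00465), and 83.2, 85.3 and 90.3 CPM in H137Y (0.41, SE 0.13, adjusted p 0.0521). The H137Y change passed the threshold in 5 of 12 alternatives, among them DESeq2 (adjusted p 0.0204) and limma voom (adjusted p 0.0444). All 6 Rps15 mutant clones exceeded all WT clones, and so did all clones of Rpl5+/- (75.1 to 101 CPM, log2 change 0.43, adjusted p 0.923), Rpl11+/- (80.7 to 90.5 CPM, 0.37, adjusted p 0.326) and Rpl22+/- (77.7 to 101 CPM, 0.42, adjusted p 0.195), none of them called.

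Bmf, a BH3-only gene, was near the limit of detection, with 3 to 47 RNA counts per library. RNA was 0.755, 1.13 and 1.32 CPM in WT, 0.1, 0.455 and 0.633 CPM in P131S (a log2 change of -1.44, SE 0.55, adjusted p 0.0372), and 0.284, 0.377 and 0.424 CPM in H137Y (-1.55, SE 0.55, adjusted p 0.0292). The clones did not overlap with WT, but without WT clone 2 neither call held (adjusted p 0.11 and 0.092), and without P131S clone 20 the P131S change was -0.97 (adjusted p 0.171). Its counts lay near the minimum of the filter on low values, 10 in a library of median size, so the genotypes in which it was higher helped it to be tested at all.

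**Figure D2:**
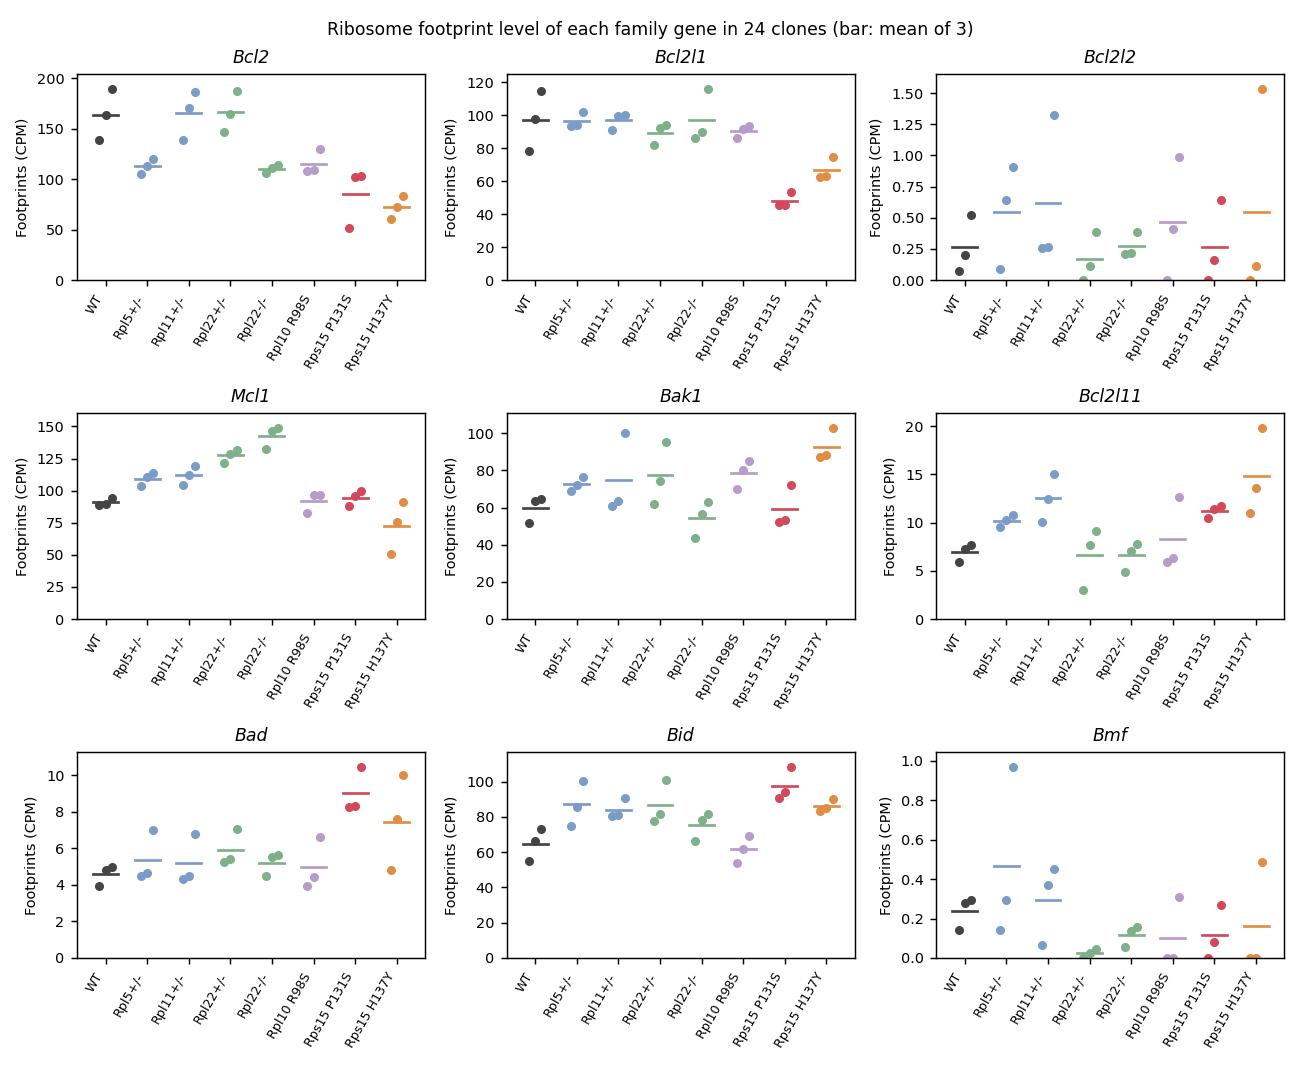
Ribosome footprint level (CPM, linear axis from 0) of the same 9 genes in each clone, laid out as in the plot of RNA levels, with a point per clone and a bar at the mean of 3 clones. Bcl2 footprints in the Rps15 mutants lie at 51.5 to 103 CPM below the WT clones at 139 to 189 CPM, and Bcl2l2 and Bmf are close to 0.

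Counted over the family, footprints differed from WT for 4 of 9 genes in P131S (Bad and Bid higher, Bcl2 and Bcl2l1 lower) and for 4 of 9 in H137Y (Bak1 and Bcl2l11 higher, Bcl2 and Bcl2l1 lower). Over all 16217 genes tested the shares were 16.7% in P131S (8.42% higher, 8.28% lower) and 11.7% in H137Y (5.22% higher, 6.44% lower). The direct comparison of the 2 mutations called 2 family genes in RNA (25.2% of all genes) and 1 in footprints (4.17%). Without H137Y clone 6, whose Bak1 RNA was the highest and Mcl1 RNA the lowest of the panel, the RNA count was 5, with Bak1, Bid and Mcl1 added. The share over all genes without this clone is not given here.

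In the other genotypes few family genes were called. RNA calls numbered 1 in Rpl5+/- (1.04% of all genes), 2 in Rpl11+/- (11.8%), 0 in Rpl22+/- (3.9%), 1 in Rpl22-/- (5.27%), 1 in Rpl10 R98S (12.9%) and 0 between Rpl22-/- and Rpl22+/- (0.0078%). At an unadjusted p under 0.05, 1 gene passed in Rpl22+/- (Mcl1, which DESeq2 called and limma voom did not) and 1 between the Rpl22 genotypes (Bcl2l11, called by neither). Of all 12814 genes, 1982 and 538 passed at this level. With edgeR no family gene was called in footprints in Rpl5+/- (0.0123% of all genes), Rpl11+/- (0.074%), Rpl22+/- (0.253%), Rpl22-/- (0.105%), Rpl10 R98S (1.62%) or between the Rpl22 genotypes (0.00617%). In each of these 6 footprint comparisons 2 or 3 family genes had an unadjusted p under 0.05. Of all 16217 genes, 667, 1601, 2223, 1093, 2209 and 2336 reached this level, in the same order. DESeq2 called Mcl1 in both Rpl22 genotypes, and limma voom called it in Rpl22-/-. A test for any difference among the 8 genotypes called all 9 tested genes in RNA (65.6% of all genes) and 6 in footprints, namely Bak1, Bcl2, Bcl2l1, Bcl2l11, Bid and Mcl1 (24.6%).

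Translational efficiency, the footprint level relative to the RNA level of a clone, was tested as the interaction of library kind and genotype over all 48 libraries. No family gene was called by edgeR in any of the 9 pairwise comparisons without a clone term. Over all 12074 genes 5.03% were called in P131S and 4.13% in H137Y. The share was 0.306% for Rpl10 R98S, 0.0166% for Rpl22-/-, 0.00828% for Rpl22+/- and 1.03% between the Rps15 mutations. They were 0% in Rpl5+/-, in Rpl11+/- and between the Rpl22 genotypes, and there an unadjusted p under 0.05 was reached by 234, 471 and 1269 genes and DESeq2 called 16, 25 and 48 genes. Family genes with an unadjusted p under 0.05 numbered 3 in P131S (Bak1, Bcl2l11 and Bid), 2 in H137Y (Bid and Mcl1) and 2 between the Rps15 mutations (Bak1 and Mcl1). There was 1 in Rpl22+/- (Bid) and 1 between the Rpl22 genotypes (Bak1). Of all 12074 genes, 2251, 2009, 1541, 1098 and 1269 reached this level in these 5 comparisons, in the same order. The family's counts have to be read against these numbers. DESeq2 called Bid in P131S and H137Y and Bak1 between the Rps15 mutations, and limma voom called Bid in P131S.

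Bcl2 and Bid had the 2 ratios that separated the Rps15 mutants from WT in opposite directions. The Bcl2 ratio of footprint CPM to RNA CPM was 0.311, 0.336 and 0.393 in WT, 0.231, 0.267 and 0.274 in P131S, and 0.226, 0.262 and 0.263 in H137Y. The log2 change was -0.41 (SE 0.26, adjusted p 0.439) in P131S and -0.49 (SE 0.26, adjusted p 0.354) in H137Y. The Bid ratio was 0.610, 0.719 and 0.827 in WT, 0.912, 0.992 and 1.10 in P131S, and 0.956, 0.969 and 1.01 in H137Y, with log2 changes of 0.48 (SE 0.15, adjusted p 0.0546) and 0.45 (SE 0.15, adjusted p 0.0819). For both genes all 6 mutant clones lay outside the WT range. The Bcl2 ratio of the Rpl10 R98S clones, 0.268, 0.285 and 0.296, was also below WT (log2 change -0.30, adjusted p 0.967).

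Because both libraries of a clone came from the same lysate, the ratio was also fitted with the clone as a block, which pairs them. With the block, 2 of 9 family genes were called in each Rps15 mutant, Bcl2 lower and Bid higher, against 8.11% of all genes in P131S and 6.33% in H137Y. The blocked log2 change of Bcl2 was -0.43 (adjusted p 0.0143) in P131S and -0.47 (adjusted p 0.0102) in H137Y. That of Bid was 0.48 (adjusted p 0.0243) and 0.46 (adjusted p 0.0391). The test for any difference among genotypes called Bak1 and Mcl1 without the block (9.23% of all genes) and 3 family genes with it (13.5%).

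**Figure D3:**
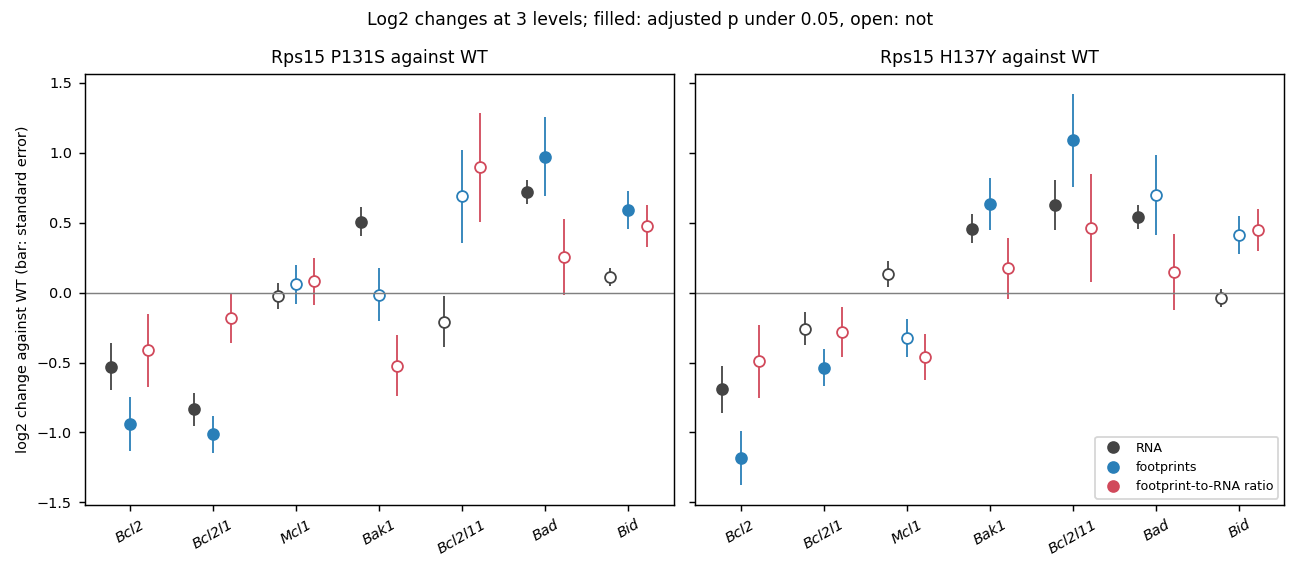
Log2 change against WT of 7 family genes in Rps15 P131S (left) and Rps15 H137Y (right) in RNA, footprints and the footprint-to-RNA ratio, from the fits without a clone term, with bars of 1 standard error, filled points for adjusted p under 0.05 and open points otherwise. Bcl2 and Bcl2l1 lie below 0 at all 3 levels in both panels, and Bak1 footprints lie at -0.01 in P131S and 0.63 in H137Y.

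Bak1 and Mcl1 showed ratios that set the Rps15 mutations apart without passing edgeR's pairwise test, with or without the block. The Bak1 ratio was 0.386, 0.483 and 0.497 in WT, 0.265, 0.285 and 0.407 in P131S, and 0.453, 0.521 and 0.598 in H137Y. P131S lay below H137Y in all clones (log2 difference -0.70, SE 0.22, adjusted p 0.114, and -0.735 with adjusted p 0.0529 in the blocked fit). The Mcl1 ratio was 0.385, 0.409 and 0.424 in WT, 0.390, 0.441 and 0.463 in P131S, and 0.190, 0.329 and 0.390 in H137Y (P131S against H137Y 0.54, SE 0.17, adjusted p 0.109). In the blocked fit this difference was 0.57 (adjusted p 0.0697). The lowest P131S clone and the highest H137Y clone were nearly level. H137Y clone 2 had the lowest Mcl1 ratio of the panel, and single clones decide this difference: it was 0.30 (adjusted p 0.373) without clone 2, 0.73 (adjusted p 0.0338) without clone 6 and 0.67 (adjusted p 0.0247) without clone 16. In Rpl22-/- the Mcl1 ratio was 0.463, 0.504 and 0.519, above all WT clones, with a log2 change of 0.29 (SE 0.17, adjusted p 1).

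**Figure D4:**
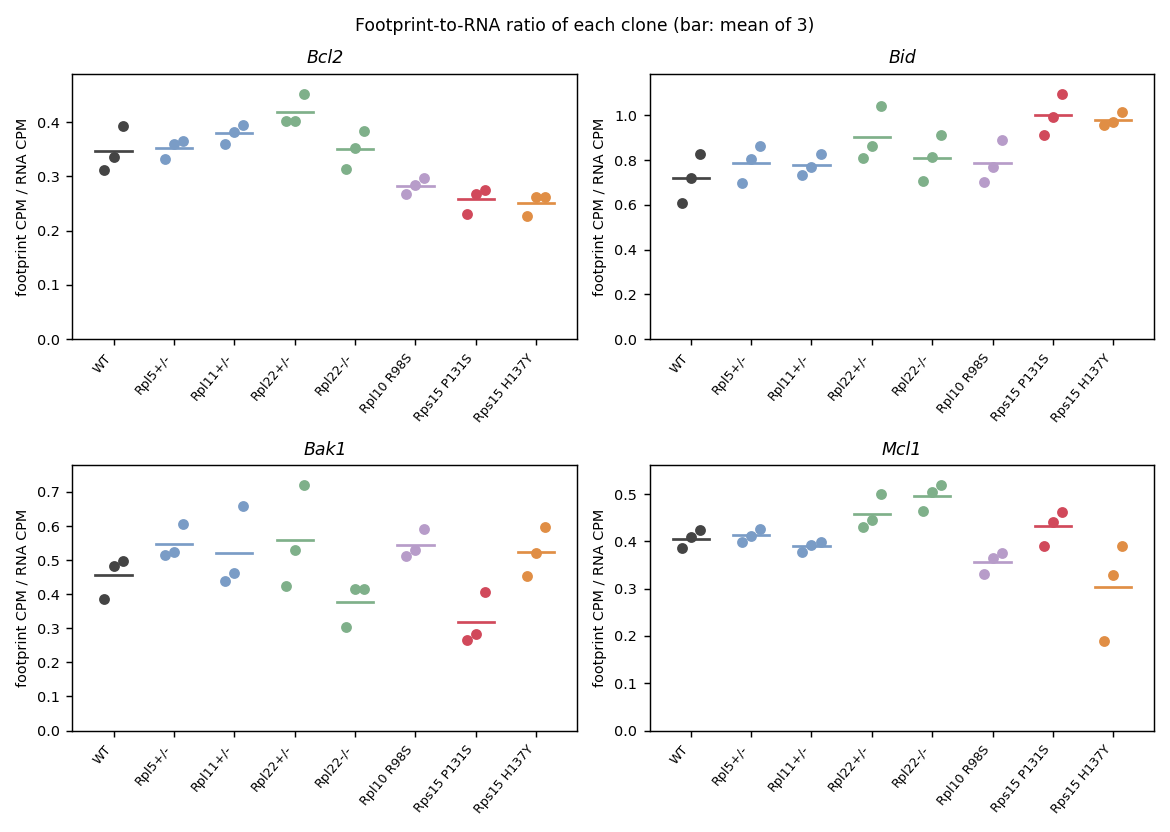
Footprint-to-RNA ratio (footprint CPM divided by RNA CPM, linear axis from 0) of Bcl2, Bid, Bak1 and Mcl1 in each clone, with a point per clone and a bar at the mean of 3 clones. In the Rps15 mutants Bcl2 lies at 0.226 to 0.274, below the WT clones, and Bid at 0.912 to 1.10, above them.

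Further genes of the pathway were read from 3 lists. Of 15 other Bcl2 family and Bcl2-related genes, 10 were tested in RNA. In P131S 2 were higher and 1 lower, and in H137Y 2 were higher, with medians of -0.18 and 0.02. These shares, 3 of 10 and 2 of 10, are below those over all genes tested in RNA (47% and 41%). In Rpl10 R98S 1 was higher and 3 lower, against 12.9% of all genes, and none was called in the other genotypes against WT. Becn1, an autophagy gene whose protein binds Bcl2, rose from 118 to 121 CPM in WT to 157 to 176 CPM in P131S (a log2 change of 0.47, adjusted p 7e-06) and 132 to 155 CPM in H137Y (0.30, adjusted p 0.000858). Bag1, a co-chaperone that binds Bcl2, rose by 0.23 (adjusted p 0.0224) and 0.27 (adjusted p 0.0103). Bnip3l, a mitophagy receptor, fell from 340 to 368 CPM in WT to 134 to 292 CPM in P131S (-0.65, adjusted p 0.00424).

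Of 26 genes of the mitochondrial pore, the apoptosome and the caspases, 25 were tested in RNA. In P131S 6 were higher and 7 lower (median 0.02), and in H137Y 2 were higher and 8 lower (median -0.10), so 13 and 10 of 25 stood against 47% and 41% of all genes, near the background. In Rpl11+/- 5 were lower and none higher, against 11.8% of all genes, and in Rpl10 R98S 2 were higher and 3 lower, against 12.9%. Cflar, which encodes the caspase-8 inhibitor c-FLIP, had the largest fall, from 67.3 to 73.6 CPM in WT to 20.1 to 31.8 CPM in P131S (-1.40, SE 0.13, adjusted p 1.29e-07) and 36.8 to 45.0 CPM in H137Y (-0.74, SE 0.13, adjusted p 0.000119). Casp8 itself fell by 0.58 in P131S (adjusted p 7.9e-07) and by 0.43 in H137Y (adjusted p 2.59e-05), and Birc3, an inhibitor of apoptosis gene, by 0.60 in P131S (adjusted p 0.00365). Cycs, which encodes the cytochrome c released through the pore, rose from 228 to 261 CPM in WT to 360 to 530 CPM in P131S (0.79, SE 0.11, adjusted p 5.84e-06). Birc6, a giant inhibitor of apoptosis, rose by 0.39 in P131S (adjusted p 0.000128) and by 0.83 in H137Y (adjusted p 2.15e-08).

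Of 31 regulators of Bcl2 family proteins, 30 were tested in RNA. In P131S 7 were higher and 8 lower (median 0.03), and in H137Y 5 were higher and 9 lower (median -0.00044), so 15 and 14 of 30 stood against 47% and 41% of all genes, near the background. Pim2, a cytokine-induced kinase that phosphorylates Bad, fell from 386 to 451 CPM in WT to 25.5 to 83.3 CPM in P131S (-2.87, SE 0.31, adjusted p 1.99e-06) and 66.7 to 72.2 CPM in H137Y (-2.57, SE 0.31, adjusted p 6.31e-06). Its relative Pim3 was low throughout and fell from 2.24 to 4.08 CPM in WT to 0 to 0.645 CPM in P131S and 0.27 to 0.638 CPM in H137Y (adjusted p 0.000112 and 0.00103). Foxo3, the forkhead factor known to drive Bcl2l11, fell by 0.66 in P131S (adjusted p 0.000222) and by 0.34 in H137Y (adjusted p 0.0347). Dynll1 and Dynll2 encode the dynein light chains that hold Bim and Bmf. Dynll1 rose by 0.53 in P131S (adjusted p 1.81e-05) and Dynll2 by 0.29 in P131S (adjusted p 0.00177) and 0.56 in H137Y (adjusted p 3.44e-06). Sfn, a 14-3-3 gene, rose by 1.01 in H137Y, from 1.88 to 2.15 CPM in WT to 3.20 to 4.82 CPM (adjusted p 0.000786).

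The closest companions of each family gene were ranked by the correlation of log2 CPM over the 24 RNA libraries, among 9445 tested genes with a mean of at least 5 CPM. Bcl2l1 was most like Serpina3g (Pearson r 0.922) and Mamdc2 (0.898), Bad like Suds3 (0.932) and Sephs2 (0.922), Bak1 like Zdhhc3 (0.925) and Man1b1 (0.92), and Bcl2l2 like Nicn1 (0.933) and P4ha1 (0.931). Bcl2 had no companion as close, with Ube4b (0.815) and Nxpe3 (0.806) first. Mcl1 was most like Ptprv (0.861) and Akap8l (0.857), Bid like Slc35g1 (0.833) and Cpne2 (0.832), Bcl2l11 like Dclre1b (0.826) and 4632404H12Rik (0.824), and Bmf like Neat1 (0.784) and Rhoh (0.782). These values are descriptions over libraries that share genotypes, so genes that moved in the same genotype rank high.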

How the data were processed

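RNA-seq and ribosome footprints were measured in 24 clones of 8 genotypes, 48 libraries in all. The authors deposited 1 table of estimated counts per gene, rounded here to whole numbers before testing. The submitters' processing notes name STAR 2.6.1d, Salmon 1.4.0, DESeq2 1.30 and GRCm38, with no role given for each. How multi-mapped or shared reads were counted is not given in the sources used here.

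The main test was edgeR 4.0.16 (quasi-likelihood, TMM factors, R 4.3.3) on all 24 libraries of an assay, with a low-count filter (minimum count 10, minimum total 15), which left 12814 genes in RNA and 16217 in footprints. For translational efficiency, both assays were fitted together as 16 groups and the assay-by-genotype contrast was tested over 12074 genes. Benjamini-Hochberg adjustment ran over all genes of a comparison, with a threshold of 0.05, and 9 comparisons were made per level. CPM are counts scaled to the TMM-adjusted library size. DESeq2 1.42.0, limma voom (limma 3.58.1), other scaling factors, no filter, fits of only the groups compared and leaving out each clone were the alternatives. The tests were also run on simulated counts, with the outcome not reported here. These counts had the same spread for all genes and no link between the 2 libraries of a clone. They do not show how the tests handle the scatter between the clones of these data.

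The 2 libraries of a clone came from the same lysate, per the labels' protocols. Their deviations from the group means correlated with r from 0.15 to 0.548 over 12074 genes (log2 of CPM plus 0.5), above 0.1 in all 24 clones, so the efficiency was also fitted with the clone as a block.

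The members and lists were chosen with earlier results of these data known. Every family gene is named. From each list up to 3 genes per direction are named, those called in RNA in an Rps15 mutant with all clones outside the WT range and the largest change. Some genes that this rule selects are not reported here. Floors cover counting error only, while standard errors come from the edgeR fit and include the spread between clones. Levels are not per length, so they are not compared between genes.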

Additional observations from a re-analysis of the deposited data

Results flagged for a closer look

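A total of 3 differences between the Rps15 mutations stood out because the test of P131S against H137Y itself passed. Bcl2l1 RNA was lower in P131S by a log2 difference of -0.58, with all 3 P131S clones below all 3 H137Y clones. Bcl2l1 footprints differed in the same direction by -0.48, also without overlap, and this call did not hold when a clone was left out. Bcl2l11 RNA differed by -0.84, with H137Y clone 6 just below the highest P131S clone. Of the myeloid markers tested, 7 were higher in P131S and 9 in H137Y against WT, and 1 was lower in P131S than in H137Y. Markers of other kinds also differed between the 2 mutations: Cd79b (log2 difference -0.85) and Hba-a1 (-3.04) were lower in P131S, and Ptprc (0.37), 1 interleukin 3 receptor gene and Cd3g were higher. Their part in these differences was not tested.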

How the results depend on the processing

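Of 28 called changes of family genes (19 in RNA, 9 in footprints), 12 were called under every alternative run (9 in RNA, 3 in footprints), and 0 changed sign. Where a count of called family genes moved, the cause was not tested. In RNA, DESeq2 called 2 in Rpl5+/-, 1 in Rpl22+/-, 2 in Rpl22-/- and 2 in Rpl10 R98S. Over all genes it called 387, 708, 903 and 2004 there, against 133, 500, 675 and 1647 with edgeR. Fits of only the groups compared called 4, 1, 3 and 7 family genes in these genotypes and 1 between the Rps15 mutations. Shares over all genes are not given here for such fits, other scaling factors, no filter or left-out clones. Those counts cannot be read as results about the family. Without the filter 0 were called in Rpl5+/- and in Rpl10 R98S. In footprints, DESeq2 called 1 in Rpl22+/- (406 over all genes, against 41 with edgeR). DESeq2 and limma voom called 5 in H137Y (2570 and 2098 over all genes), against 4 with edgeR (1890). In Rpl22-/- DESeq2, limma voom, no filter and only the groups compared each called 1. Over all genes DESeq2 called 146 and limma voom 38 there, against 17 with edgeR. Between the Rps15 mutations DESeq2 (1309 over all genes, against 677 with edgeR) and upper-quartile factors called 2 and only the groups compared 0. For efficiency, DESeq2 called 1 in P131S, in H137Y and between them (877, 765 and 299 over all genes). Limma voom (652 over all genes) and upper-quartile factors called 1 in P131S. The test over all genotypes called 1 without the filter and 1 with upper-quartile factors. With the clone as a replicate block, 2 were called in P131S and 2 in H137Y, and no other pairwise call changed.

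Leaving out 1 clone at a time gave RNA counts of 0 to 0 in Rpl5+/- and Rpl10 R98S, 0 to 3 for Rpl11+/- clones, 0 to 1 for Rpl22-/- clones and 2 to 5 between the Rps15 mutations. Footprint counts were 1 to 3 in H137Y (1 without WT clone 1) and 0 to 1 between the Rps15 mutations. Efficiency counts were 0 to 1 in P131S, in H137Y and between them, and 0 to 2 over all genotypes. The uncalled Bak1 RNA difference between P131S and H137Y turned from 0.05 to -0.080 without H137Y clone 2, and was 0.25 (adjusted p 0.0182) without clone 6. Bcl2 in P131S missed the threshold when only the groups compared were fitted, in RNA (adjusted p 0.0744) and in footprints (adjusted p 0.0506). Footprints per kilobase of coding sequence were not run, since coding lengths were not used here, and the test over all genotypes has no fit of only the groups compared. Low counts limit Bmf in both assays and Bcl2l2, Bad and Bcl2l11 in footprints.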

Other observations

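Some pathway genes outside the family differed in their footprint-to-RNA ratio in the Rps15 mutants. They were chosen after their values were seen, from the same 3 lists, and edgeR's adjusted p is given. Over all 12074 genes the ratio was called for 5.03% in P131S and 4.13% in H137Y. How many genes of the lists were called for the ratio is not given here, so these examples cannot be read as a result about the lists. Bcl2l13, a mitophagy receptor related to Bcl2, had a higher ratio in P131S (0.464 to 0.511 against 0.261 to 0.364 in WT, log2 change 0.72, adjusted p 0.0105) and in H137Y (0.359 to 0.635, log2 change 0.73, adjusted p 0.0101, with 1 clone inside the WT range). Gsk3b, a kinase that marks Mcl1 for degradation, had a lower ratio in P131S (0.254 to 0.300 against 0.445 to 0.485 in WT, log2 change -0.71, adjusted p 0.000704) and in H137Y (0.269 to 0.350, log2 change -0.56, adjusted p 0.00767).

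In other genes the ratio was called in 1 of the mutants. Birc6 was lower in H137Y (1.06 to 1.26 against 2.23 to 2.49 in WT, log2 change -0.996, adjusted p 3.17e-07), and P131S differed from H137Y by 0.75 (adjusted p 0.000167). Its RNA was higher in H137Y while its footprints were not called (log2 change -0.17, adjusted p 0.212). Akt1, a kinase that phosphorylates Bad, was lower in P131S (0.0535 to 0.0830 against 0.115 to 0.180 in WT, log2 change -0.96, adjusted p 0.000673), and P131S differed from H137Y by -0.77 (adjusted p 0.0207). Bag1 was lower in H137Y (0.0226 to 0.0641 against 0.0892 to 0.113 in WT, log2 change -1.21, adjusted p 0.00195), where its RNA was higher. The difference of Bag1 between the mutations was not called (0.52, adjusted p 0.363).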
